A study of Mus musculus with 4 samples.

Results

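The genes through which a cell senses oxygen were followed in lenses of mice that lack *S100A4*. The list named 10 genes, namely *Hif1a*, *Epas1*, *Arnt*, *Egln1*, *Egln2*, *Egln3*, *Vhl*, *Vegfa*, *Adm* and *Ankrd37*. Of these, 9 had a row among the 14924 genes of the expression table, and *Adm* was not analysed here. RNA-seq was done on whole lenses of mice at 1 month of age, with 2 libraries of S100A4-/- lenses (labelled S100A4 null, a germline deletion) and 2 of wild type (WT) littermate lenses, both on a C57BL/6J background. Each library came from its own pool of 6 to 12 lenses. The study used both sexes, and the sex of the animals in each pool was not given in the sources used here. The S100A4-/- libraries held 81602367 and 74108017 reads on genes and the WT libraries 70253985 and 68038158. A normalized value is the read count of a gene divided by the size factor of its library, so that 1 read was worth 0.856 and 1.01 in the S100A4-/- pools against 1.04 and 1.09 in the WT pools.

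Hypoxia-inducible factors (HIFs) are pairs of an alpha subunit, encoded by *Hif1a* or *Epas1*, and a beta subunit, encoded by *Arnt*. When oxygen is present, prolyl hydroxylases encoded by *Egln1*, *Egln2* and *Egln3* mark the alpha subunits, and the product of *Vhl* then recruits the ligase that sends them for degradation. When oxygen is scarce, the alpha subunits persist and raise the transcription of target genes such as *Vegfa*, which encodes a growth factor for blood vessels, and *Ankrd37*, which encodes a small ankyrin repeat protein. *Egln3* is itself a well known target. The grown lens has no blood vessels and lies in surroundings low in oxygen. The control of the alpha subunits acts mostly on protein, which RNA-seq does not measure.

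The labels and the tissue were checked first. *S100a4* (chromosome 3, 90603771 to 90606045, GRCm38) had values of 14.6 and 18.2 with the deletion and 14420 and 14385 in WT lenses. Its log2 fold change was -9.70, with a standard error (SE) of 0.10 and a limma adjusted p of 6.42e-41. Of 11 lens markers, led by the crystallin gene *Cryaa*, 11 were tested and 0 were called by limma at an adjusted p of 0.05, with 1 at an unadjusted p under 0.05 and 1 called by each of edgeR and DESeq2. Their summed values were 22510000 and 24120000 in the S100A4-/- pools against 24130000 and 24290000 in the WT pools.

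Among the hypoxia sensing genes, *Epas1* rose more than 2-fold in S100A4-/- lenses, *Vegfa* rose 1.22-fold and *Hif1a* fell to 0.902 of its WT level. The hydroxylase genes, *Vhl*, *Arnt* and *Ankrd37* did not pass the test. A gene was called when its adjusted p was 0.05 or less (limma on log2(value + 1), Benjamini-Hochberg over all 14780 genes tested). By this rule 3 of the 9 genes were called at any fold, 2 higher and 1 lower. Among all genes tested the same call was made for 6.96%, namely 5.62% higher and 1.33% lower. With a change of at least 2-fold added, 1 of the 9 was called, against 3.72% of all genes, 3.65% higher and 0.0744% lower. Without the trend of variance with level in limma, 0 of the 9 were called, at 2-fold or at any fold. Of all 14780 genes tested, 179 were then called higher and 8 lower at any fold, and 174 and 7 at 2-fold. The limma calls of *Hif1a* and *Vegfa* were also lost with any 1 library left out. The libraries of both groups did not overlap for 6 of the 9 genes, 4 higher and 2 lower in S100A4-/- lenses, and 46.9% of all genes tested did the same. The median log2 fold change was 0.057 over the 9 genes, and it was -0.011 with quantile normalization and -0.0099 without WT replicate 2. Over all genes tested the median was -0.0052. In whole lenses a different number of cells of a type and a different amount of RNA per cell cannot be told apart.

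Levels of different genes were compared per kilobase (kb) of exon. In WT lenses the order was led by *Hif1a* at 1687 ± 17.4 normalized units per kb (SD, n = 2), above 96.6% of all genes, and by *Egln1* at 1350 ± 4.93, above 95.6%. *Egln2* followed at 486 ± 5.004, *Vhl* at 314 ± 8.51, *Vegfa* at 215 ± 0.16 and *Egln3* at 213 ± 9.42. *Arnt* stood at 94.99 ± 0.07, *Ankrd37* at 40.5 ± 8.96 and *Epas1* last at 19.7 ± 2.96, above only 28.3% of genes. The median over all genes was 66.7. The WT libraries overlapped between *Vegfa* and *Egln3*, and every other pair of neighbours in the order was apart in both WT libraries. The 2 alpha subunits thus stood at opposite ends of the order. The level of *Hif1a* per kb was 95.4 and 78.2 times that of *Epas1* in the WT libraries and 34.6 and 32.0 times in the S100A4-/- libraries. In S100A4-/- lenses the order was the same except that *Epas1*, at 45.7 ± 2.74 per kb, stood above *Ankrd37*, at 43.5 ± 1.76, with libraries that overlapped.

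**Figure D1:**
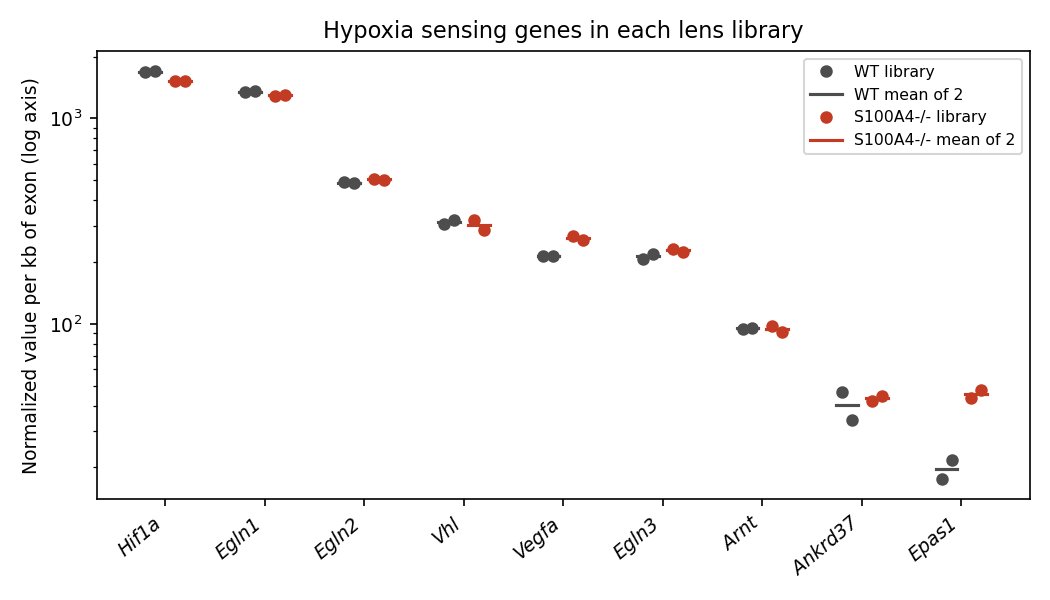
Normalized value per kb of exon (log axis) of each hypoxia sensing gene, in order of the WT mean, with a point for each library (WT in grey, S100A4-/- in red) and a bar for the mean of 2. *Hif1a* and *Egln1* lie highest and *Epas1* lowest in WT lenses, and the groups of *Epas1* are the most widely separated, at 17.6 and 21.7 per kb against 43.8 and 47.7.

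Of the alpha subunits, *Epas1* (ENSMUSG00000024140, chromosome 17, 86753700 to 86833410, plus strand, GRCm38), which encodes HIF-2 alpha, had values of 245 and 267 with the deletion and 98.2 and 122 in WT lenses. These values came from 286 and 263 reads against 94 and 111. Both S100A4-/- libraries were above both WT libraries, with means of 256 ± 15.3 and 110 ± 16.5 (SD, n = 2 each), a ratio of 2.33. The log2 fold change was 1.22 with an SE of 0.16 and a 95% interval from 0.89 to 1.54 (limma, adjusted p = 4.49e-07), and the adjusted p was 2.98e-07 with edgeR and 3.43e-06 with DESeq2. Without any 1 library in turn the adjusted p of limma ranged from 6.32e-12 to 0.0357, and without the trend of variance with level it was 0.0825. Of the 539 genes called at least 2-fold higher, 484 had a larger log2 fold change than *Epas1*.

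*Hif1a* (ENSMUSG00000021109, chromosome 12, 73901375 to 73947530, plus strand), the other alpha subunit, moved the opposite way by a small amount. Its values were 8949 and 8997 in the S100A4-/- pools against 9874 and 10018 in the WT pools, so the groups did not overlap. The means were 8973 ± 33.8 and 9946 ± 102 (SD, n = 2 each), a ratio of 0.902. The log2 fold change was -0.15 with an SE of 0.04 and a 95% interval from -0.24 to -0.06 (limma, adjusted p = 0.0307). The call was also made by DESeq2 (adjusted p = 0.0441) and not by edgeR (adjusted p = 0.0612). It was not made by limma with any 1 library left out, where the adjusted p was 0.154 and 0.120 without S100A4-/- replicates 1 and 2 and 0.174 and 0.284 without WT replicates 1 and 2, nor with libraries scaled to equal totals (adjusted p = 0.340). An antisense gene, *Gm15283*, covers 330 bases or 5.60% of its exons and a gene on the same strand, *Gm49321*, 148 bases or 2.51%, and whether the counting used strand is not given in the sources used here. *Arnt* (ENSMUSG00000015522, chromosome 3, 95434388 to 95497240, plus strand), the beta subunit that both alpha subunits bind, had values of 781 and 730 with the deletion and 760 and 761 in WT lenses. The S100A4-/- libraries of *Arnt* lay on either side of the WT libraries, with a log2 fold change of -0.01 and a 95% interval from -0.18 to 0.16 (limma, adjusted p = 0.968).

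The genes that mark the alpha subunits for degradation did not pass the test. *Egln1* (ENSMUSG00000031987, chromosome 8, 124908587 to 124949324, minus strand), which encodes the main hydroxylase acting on HIF alpha in most tissues, had values of 4635 and 4666 in the S100A4-/- pools against 4841 and 4866 in the WT pools. The groups did not overlap, yet the log2 fold change was only -0.06 with a 95% interval from -0.16 to 0.04 (limma, adjusted p = 0.567). *Egln2* (ENSMUSG00000058709, chromosome 7, 27158658 to 27166802, minus strand) had values of 1426 and 1409 with the deletion and 1372 and 1352 in WT lenses. Its log2 fold change was 0.06 with a 95% interval from -0.08 to 0.19 (limma, adjusted p = 0.729). *Egln3* (ENSMUSG00000035105, chromosome 12, 54178981 to 54203860, minus strand) had values of 615 and 598 in the S100A4-/- pools against 549 and 585 in the WT pools. Its log2 fold change was 0.10 with a 95% interval from -0.09 to 0.28 (limma, adjusted p = 0.638). *Vhl* (ENSMUSG00000033933, chromosome 6, 113623959 to 113631633, plus strand), whose product recognises the hydroxylated alpha subunits, had values of 955 and 857 with the deletion and 922 and 958 in WT lenses. The groups of *Vhl* overlapped, with a log2 fold change of -0.05 and a 95% interval from -0.21 to 0.10 (limma, adjusted p = 0.789). None of these 4 intervals reached a change of 2-fold in either direction.

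Of the target genes on the list, *Vegfa* (ENSMUSG00000023951, chromosome 17, 46016993 to 46032369, minus strand) had values of 1148 and 1097 in the S100A4-/- pools against 921 and 922 in the WT pools. Both S100A4-/- libraries were above both WT libraries, with means of 1122 ± 36.0 and 921 ± 0.68 (SD, n = 2 each), a ratio of 1.22. The log2 fold change was 0.28 with an SE of 0.07 and a 95% interval from 0.13 to 0.43 (limma, adjusted p = 0.00973). The call was also made by edgeR (adjusted p = 0.00595) and not by DESeq2 (adjusted p = 0.0650). It was not made by limma with any 1 library left out, where the adjusted p was 0.195 and 0.0895 without S100A4-/- replicates 1 and 2 and 0.0553 and 0.0529 without WT replicates 1 and 2. *Ankrd37* (ENSMUSG00000050914, chromosome 8, 45996902 to 46005707, minus strand) had values of 65.1 and 68.9 with the deletion and 72.0 and 52.6 in WT lenses, from 48 to 76 reads. The groups overlapped, with a log2 fold change of 0.12 and a 95% interval from -0.40 to 0.64 (limma, adjusted p = 0.870), the widest interval of the 9 genes. *Lrp2bp* and *Ufsp2* on the opposite strand cover 22.7% and 3.70% of the exons of *Ankrd37*.

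**Figure D2:**
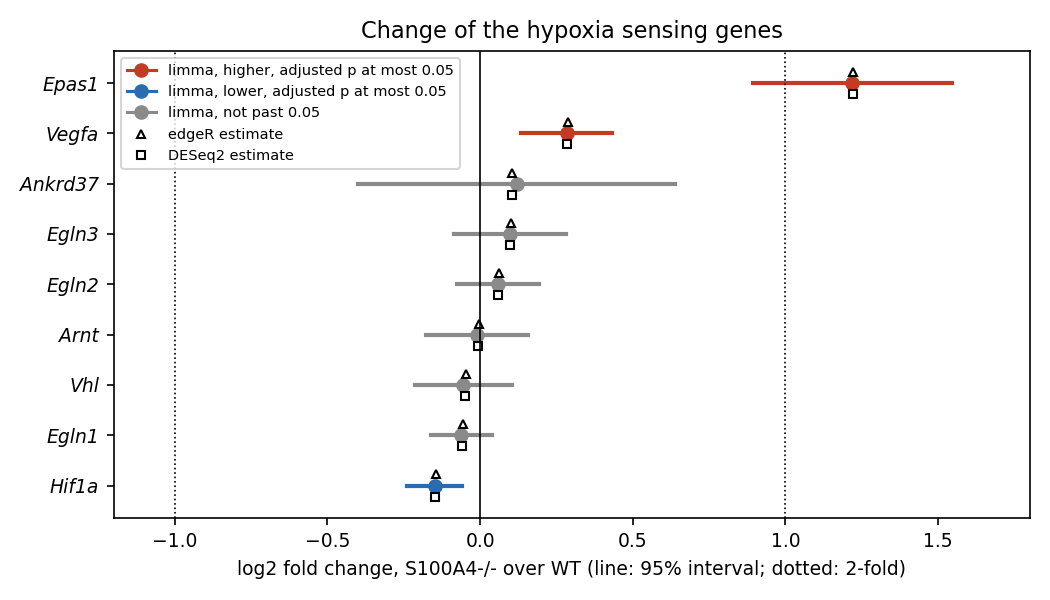
log2 fold change of each hypoxia sensing gene, S100A4-/- over WT, with the limma estimate as a filled point, its 95% interval as a line, and the edgeR and DESeq2 estimates as an open triangle and an open square. *Epas1* is the gene whose estimate lies past the dotted line of a 2-fold change, at 1.22, *Vegfa* lies at 0.28 and *Hif1a* at -0.15, and the intervals of the other 6 genes cross 0.

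HIFs bind DNA at a core of 5 letters, ACGTG or GCGTG, so the 250 bases before the start sites of these genes were searched for both on either strand (CACGT and CACGC in reverse), with the promoter sequences of RefSeq on GRCm38.p6. Of 32851 promoters in the table, 38.6% held at least 1 match, and CACGTG, which holds the first core on both strands, was in 6.02%. There was an entry for 8 of the 9 genes, not for *Epas1*, with 10 start sites in all. A match was found for 7 of the 8 genes, and for *Vegfa* it lay before the second of its listed starts. *Vhl* had no match in this window, and *Hif1a* also held CACGTG. To show where the core lies, 30 bases around the match nearest to the start are printed for the 6 genes with a match before their first listed start, in the direction of transcription, with the matched letters in capitals:
Hif1a: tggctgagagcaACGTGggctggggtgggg
Arnt: ccatagtttgggGCGTGtcttctgcccagg
Egln1: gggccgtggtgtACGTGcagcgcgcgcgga
Egln2: gtgcggttcgcgCACGCgcagtctcctcgg
Egln3: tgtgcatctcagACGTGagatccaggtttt
Ankrd37: ggctgcacatgtcagtgtttgggtACGTGa

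These windows lie at chr12:73907785-73907814 on the plus strand for *Hif1a*, at chr3:95434349-95434378 on the plus strand for *Arnt*, at chr8:124949305-124949334 on the minus strand for *Egln1*, at chr7:27166819-27166848 on the minus strand for *Egln2*, at chr12:54204086-54204115 on the minus strand for *Egln3* and at chr8:45999851-45999880 on the minus strand for *Ankrd37*. The printed match lay 6 bases before the start for *Ankrd37*, 29 for *Arnt*, 34 for *Egln2*, 68 for *Egln1*, 70 for *Hif1a* and 229 for *Egln3*. *Ankrd37* and *Egln2* each held 4 matches before that start. Of the 7 genes with a match, *Hif1a* and *Vegfa* were called between the groups, where 6.96% of all genes were. A match is a description of the letters, and binding was not measured.

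The wider pathway was read from 5 lists with 74 genes, of which 70 were tested. Of the 70, 5 were called higher (7.14%, against 5.62% of all genes tested) and 1 lower (1.43%, against 1.33%) by limma at any fold. With a change of at least 2-fold, 4 were called higher (5.71%, against 3.65%) and 0 lower (against 0.0744%), and these 4 belonged to the list of the VEGF and adrenomedullin families and their receptors. Of the 4, *Kdr* and *Ramp2* reached the minimum value of 10 in S100A4-/- libraries alone. The count was 1 without S100A4-/- replicate 1, 2 without S100A4-/- replicate 2 and 1 among genes whose mean value reached 50. The median log2 fold change over the 70 genes was -0.0084.

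No partner or regulator of HIF passed the test. Of 13 genes tested, 0 were called by limma, edgeR or DESeq2, with 2 at an unadjusted p under 0.05 in limma, and the median log2 fold change was -0.01. *Hif3a*, which encodes another alpha subunit that can act as an inhibitor, had the smallest adjusted p among those with a positive log2 fold change. Its values were 126 and 159 in the S100A4-/- pools against 103 and 95.3 in the WT pools, which did not overlap, with a log2 fold change of 0.51 (SE 0.19, limma adjusted p = 0.112). *Crebbp*, a coactivator of HIF, followed at a log2 fold change of 0.14 (limma, adjusted p = 0.317). Among those with a negative value, *Eloc*, a subunit of the VHL ligase, stood at -0.14 (limma, adjusted p = 0.262) and *Siah2*, a ligase for the hydroxylases, at -0.24 (limma, adjusted p = 0.320).

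Target genes of glucose use covered a wide range of levels. In WT lenses the glucose transporter gene *Slc2a1* stood above 98.4% of all genes per kb of exon, the aldolase gene *Aldoc* above 99.4%, *Aldoa* above 98.9% and the lactate dehydrogenase gene *Ldha* above 96.5%. *Gapdh* stood above 58.0%, *Pgam1* above 54.9% and *Pfkfb4*, the lowest of the list, above 19.7%. Of 16 genes tested, 0 were called higher and 1 lower (6.25% in either direction, against 6.96% of all genes), and the median log2 fold change was -0.03. The gene called was *Aldoc*, with values of 27856 and 32553 with the deletion and 33721 and 34308 in WT lenses, with a log2 fold change of -0.18 (SE 0.05, limma adjusted p = 0.0156). The call was also made by edgeR (adjusted p = 0.0339). The log2 fold change of *Aldoc* was -0.063 without S100A4-/- replicate 1 and -0.29 without S100A4-/- replicate 2. The S100A4-/- libraries of *Aldoc* differed from each other more than the nearer one differed from WT, and the adjusted p was 0.704 with DESeq2 and, with limma, 0.479 without S100A4-/- replicate 1, 0.0580 without WT replicate 1 and 0.132 without WT replicate 2. *Slc2a1* had values of 13285 and 14145 in the S100A4-/- pools against 12852 and 13408 in the WT pools, which overlapped, with a log2 fold change of 0.06 (limma, adjusted p = 0.507). *Pfkfb3*, which encodes an enzyme that drives glycolysis, stood at -0.16 (limma, adjusted p = 0.0950), and the phosphoglycerate mutase gene *Pgam1* at 0.18 (limma, adjusted p = 0.602). Whether near-identical copies of such genes took part of their reads was not tested.

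Among 13 target genes of mitochondria and stress, 1 was called higher and 0 lower (7.69% in either direction, against 6.96% of all genes), with a median log2 fold change of -0.06. *Ndufa4l2*, which encodes a mitochondrial protein that lowers respiration in hypoxia, had values of 651 and 721 with the deletion and 525 and 552 in WT lenses. The groups did not overlap, and the log2 fold change was 0.35 (SE 0.09, limma adjusted p = 0.0101). It ranged from 0.27 to 0.42 with 1 library left out. The call was also made by edgeR (adjusted p = 0.00774). The adjusted p was 0.0921 with DESeq2 and, with limma, 0.0987 and 0.261 without S100A4-/- replicates 1 and 2 and 0.0827 without WT replicate 1. The mitochondrial subunit gene *Cox4i2* stood at 0.35 (limma, adjusted p = 0.498). *Ddit4*, an inhibitor of growth signalling, stood at -0.20 (limma, adjusted p = 0.120) and the mitophagy receptor gene *Bnip3l* at -0.12 (limma, adjusted p = 0.205).

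Of 17 target genes of matrix, acid and iron handling and histone demethylation that were tested, 0 were called by limma, edgeR or DESeq2, with 4 at an unadjusted p under 0.05 in limma, and the median log2 fold change was 0.0070. The carbonic anhydrase gene *Car9*, a widely used marker of hypoxia, had values of 241 and 245 with the deletion and 179 and 193 in WT lenses. These did not overlap, with a log2 fold change of 0.39 (limma, adjusted p = 0.0977). *Lox*, which encodes an enzyme that crosslinks collagen, was counted with 16 reads in each S100A4-/- library and 5 and 3 in the WT libraries, a log2 fold change of 1.62 (limma, adjusted p = 0.194), and reached the minimum value in S100A4-/- libraries alone. *Hmox1*, which encodes the heme oxygenase and stood above 99.9% of genes per kb in WT lenses, and *P4ha1*, a collagen hydroxylase gene, both stood at -0.10 (limma, adjusted p = 0.204 each).

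**Figure D3:**
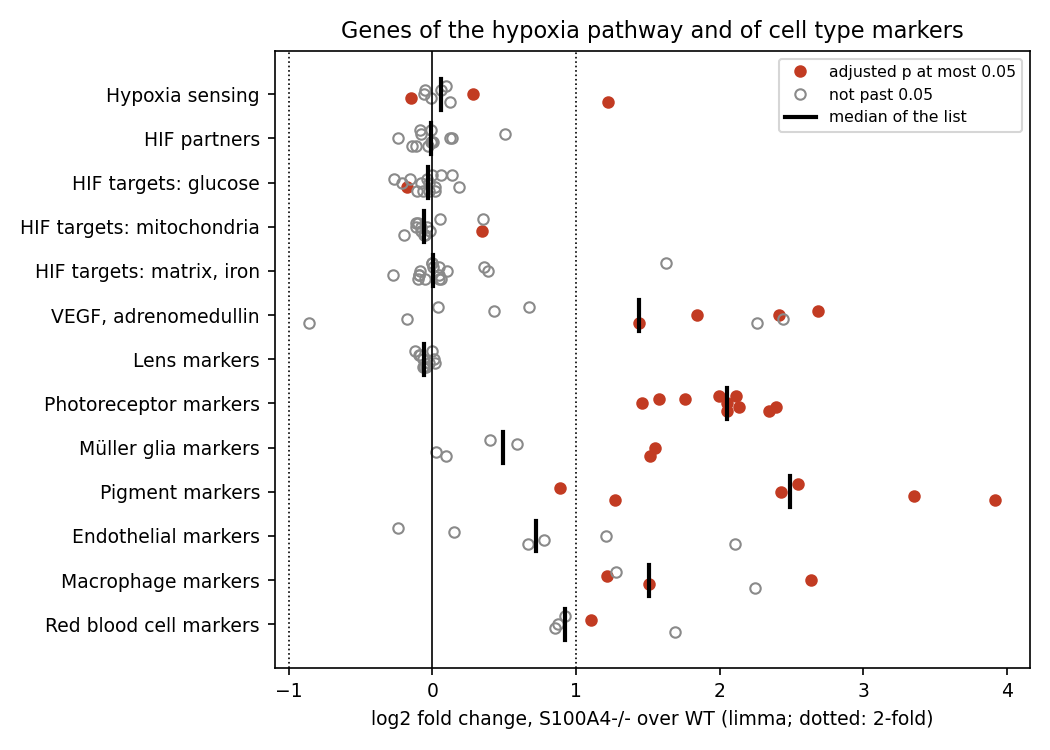
log2 fold change (limma, S100A4-/- over WT) of each tested gene of the hypoxia sensing list, of the 5 pathway lists and of 7 lists of cell type markers, with filled red points at an adjusted p of at most 0.05 in either direction, open points otherwise, and a black bar at the median of each list. The partner and target lists have medians between -0.06 and 0.01, the list of the VEGF and adrenomedullin families and receptors one of 1.44 (0.35 among its genes whose mean value reached 50), and the photoreceptor markers one of 2.05.

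Of the genes in the 5 pathway lists, those called at least 2-fold higher were *Flt1*, *Kdr*, *Nrp2* and *Ramp2*. Of 11 genes tested of the VEGF and adrenomedullin families and their receptors, 4 were called at least 2-fold higher (3.65% of all genes were) and 0 lower (0.0744% were), and all 4 encode receptors or parts of them. Of the 11, 5 reached the minimum value of 10 in S100A4-/- libraries alone and 1 in a WT library alone. Among all 14780 genes tested, 760 reached it in S100A4-/- libraries alone and 317 in WT libraries alone. The median log2 fold change of the 11 was 1.44. Taking the minimum away could not change this median, since all 11 genes of the list with a row had reached the minimum. Among genes of the list whose mean value reached 50 the median was 0.35. *Kdr* and *Ramp2* were among the 5. *Flt1*, which encodes VEGF receptor 1, had values of 241 and 239 in the S100A4-/- pools against 61.6 and 71.2 in the WT pools. The groups were far apart, with means of 240 ± 1.03 and 66.4 ± 6.76 (SD, n = 2 each) and a log2 fold change of 1.84 (SE 0.18, limma adjusted p = 4.71e-10). *Kdr*, which encodes VEGF receptor 2, the main signalling receptor of vessels, was counted with 87 and 60 reads in the S100A4-/- libraries and 9 in each WT library. Its log2 fold change was 2.68 (SE 0.39, limma adjusted p = 3.90e-06). *Nrp2*, which encodes a coreceptor, had values of 83.9 and 57.8 with the deletion and 24.0 and 26.3 in WT lenses, with a log2 fold change of 1.44 (SE 0.32, limma adjusted p = 0.00175). *Ramp2*, which encodes the partner that makes the calcitonin receptor-like receptor a receptor for adrenomedullin, was counted with 40 and 31 reads against 3 and 8, a log2 fold change of 2.41 (SE 0.56, limma adjusted p = 0.00318). With 1 library left out, the log2 fold change of *Ramp2* ranged from 1.79 to 3.03. For each of these genes both S100A4-/- libraries were above both WT libraries. Without S100A4-/- replicate 1 the adjusted p was 0.0566 for *Kdr*, 0.245 for *Nrp2* and 0.203 for *Ramp2*, and without S100A4-/- replicate 2 it was 0.0664 for *Nrp2* and 0.165 for *Ramp2*. Without the trend of variance it was 0.127 for *Nrp2* and 0.189 for *Ramp2*.

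Levels of these receptor genes were low even so. Per kb of exon, *Flt1* in WT lenses stood above 12.2% of all genes, *Nrp2* above 5.91%, *Ramp2* above 5.06% and *Kdr* above 3.07%. In S100A4-/- lenses the means per kb were 17.8 for *Flt1*, 9.95 for *Ramp2*, 7.49 for *Kdr* and 5.98 for *Nrp2*. The median over all genes in WT lenses was 66.7. *Nrp1*, the other coreceptor, had values of 89.1 and 65.9 in the S100A4-/- pools against 52.2 and 43.8 in the WT pools, a log2 fold change of 0.67 (limma, adjusted p = 0.142). *Calcrl*, the calcitonin receptor-like receptor gene, was counted with 11 reads in each S100A4-/- library and 1 in each WT library (limma, adjusted p = 0.146). Among the ligands, *Vegfb* had values of 1794 and 1900 with the deletion and 1799 and 1796 in WT lenses, with a log2 fold change of 0.04 (limma, adjusted p = 0.819). The placental growth factor gene *Pgf*, whose product binds the receptor encoded by *Flt1*, stood at -0.18 (limma, adjusted p = 0.511) and *Vegfc* at -0.86 (limma, adjusted p = 0.655), the latter from 2 to 10 reads.

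Markers of other cell types were read in the same libraries. Blood vessel cells are the main site of these receptors and often of *Epas1*. Of 7 endothelial markers listed, 6 were tested and 0 were called by limma, edgeR or DESeq2. In limma 1 of the 6 was at an unadjusted p under 0.05, and their median log2 fold change was 0.72. Their summed values were 146 and 161 in the S100A4-/- pools against 102 and 132 in the WT pools. The most abundant of them, the receptor gene *Tek*, had values of 46.2 and 44.6 with the deletion and 49.1 and 59.1 in WT lenses, with a log2 fold change of -0.24 (limma, adjusted p = 0.738). The libraries of both groups did not overlap for 4 of the 6 (46.9% of all genes), with *Tie1*, *Esam* and *Cldn5* higher in S100A4-/- lenses and *Tek* lower. *Esam* reached the minimum value of 10 in an S100A4-/- library alone. *Tie1* stood at a log2 fold change of 2.11 (limma, adjusted p = 0.0688), *Esam* at 1.21 (limma, adjusted p = 0.461) and *Cldn5* at 0.78 (limma, adjusted p = 0.401). *Cdh5* stood at 0.66 (limma, adjusted p = 0.548) and *Pecam1* at 0.15 (limma, adjusted p = 0.906). None of the 6 was at 0 reads in any library.

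**Figure D4:**
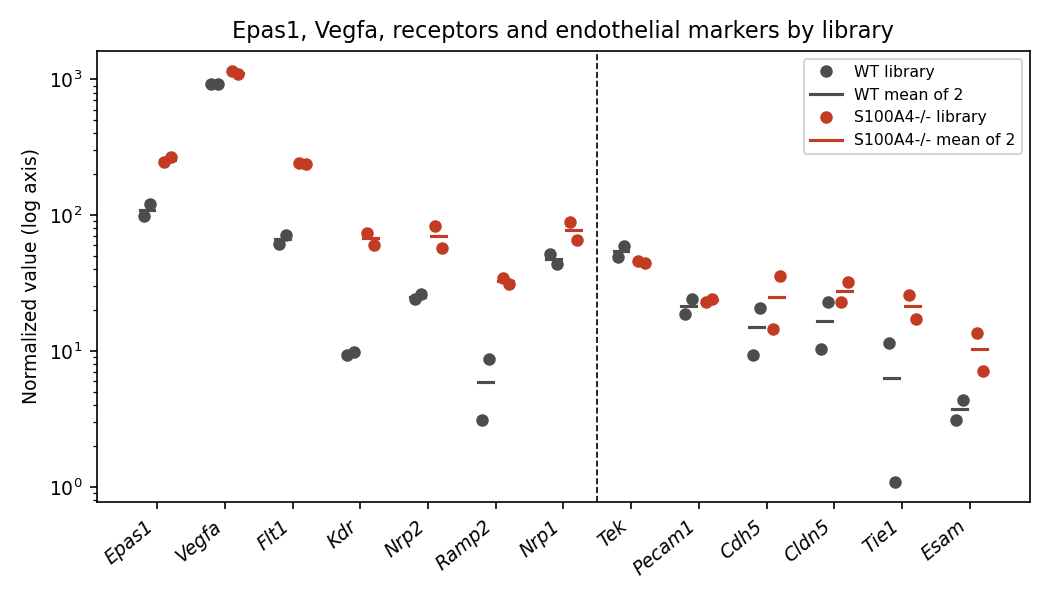
Normalized values (log axis) of *Epas1*, *Vegfa*, 5 receptor genes and, right of the dashed line, 6 endothelial markers, with a point for each library (WT in grey, S100A4-/- in red) and a bar for the mean of 2. The red points of *Epas1*, *Flt1*, *Kdr*, *Nrp2* and *Ramp2* lie above the grey points, as do those of *Nrp1*, *Tie1*, *Esam* and, by a narrow margin, *Cldn5*, while those of *Pecam1* and *Cdh5* overlap the grey points and those of *Tek* lie lower.

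Some markers of other cell types were also higher in S100A4-/- lenses, where 5.62% of all genes were called higher at any fold and 3.65% at least 2-fold. All 10 photoreceptor markers, led by *Gnat1*, were called at least 2-fold higher, with summed values of 11400 and 11100 in the S100A4-/- pools against 2712 and 2828 in the WT pools. Of 7 pigment cell and pigment epithelium markers listed, led by *Ttr*, 6 were tested and 6 called higher, 5 at least 2-fold, with sums of 1626 and 1639 against 385 and 514. *Mlana*, counted among the 5, reached the minimum value in S100A4-/- libraries alone. Of 6 Müller glia markers, 2 were called higher, *Glul* and *Slc1a3*, and the sums, led by *Dkk3*, were 85100 and 86890 against 80540 and 80930. Of 7 macrophage markers listed, 5 were tested and 3 called higher, *C1qa*, *C1qb* and *Csf1r*, and DESeq2 called 1 of the 3, *Csf1r*. The sums of the 5 were 238 and 207 against 82.5 and 66.8. Of 5 red blood cell markers, 1 was called higher, *Hbb-bs*, with sums of 294 and 260 against 169 and 98.5. No marker tested in these lists was at 0 reads in any library. The part that such cells had in the values of *Epas1*, *Vegfa* and the receptors was not tested.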

How the data were processed

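RNA was taken from pools of whole lenses, and libraries were made with a stranded mRNA kit and sequenced single-end. Trim Galore was used by the authors to trim reads and STAR to align them to GRCm38. HTSeq then counted reads placed at a single locus, and the authors kept genes with at least 10 reads in a library. The deposited values are the normalized signal of each gene, its reads divided by a DESeq2 size factor. Whole reads were recovered from them for all genes, within 0.001 of a whole number. The 3 reads taken as a floor were worth 2.57 and 3.04 for S100A4-/- and 3.13 and 3.28 for WT. Replicates differed beyond counting noise (chi-square per gene 48.7 for S100A4-/- and 15.6 for WT, with medians of 1.36 and 1.06). With 2 pools a group, limma p-values rest on the spread between these pools and on a variance shared across genes. They do not measure the spread of the pools of a gene alone.

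The main test was limma (trend of variance with level), S100A4-/- against WT, on log2(value + 1). It covered 14780 genes that reached a value of 10 in any library, leaving out 144, with Benjamini-Hochberg adjustment over all. Intervals are at 95% from this model. edgeR's quasi-likelihood test and DESeq2 on the recovered reads were alternatives, beside other pseudocounts, filters, scalings, a replicate block and each library left out, where the lone library of a group was assumed to vary like the other group. Exon lengths and coordinates came from GENCODE M21, which 14782 of the 14924 identifiers matched. Named genes were all members, S100a4, in each pathway list all genes past the threshold of at least 2-fold and otherwise the 2 with the smallest adjusted p in each direction, the most abundant or called gene of each marker list, and 3 genes most like each called member. Other genes named (Aldoa, Ldha, Nrp1, Calcrl, Vegfb, Gapdh, Pfkfb4 and the endothelial markers other than Tek) were picked once their values had been seen. The members and lists were chosen with earlier results of these data known. A gene of a pathway list is not reported here and was left out of the counts. The scripts were tested on simulated data. Python 3.11.15 was run with pandas 2.3.3, matplotlib 3.10.9 and numpy 2.4.6, and R 4.3.3 with DESeq2 1.42.0, limma 3.58.1 and edgeR 4.0.16.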

Additional observations from a re-analysis of the deposited data

How the results depend on the processing

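Without the trend of variance in limma, 0 hypoxia sensing genes were called, at 2-fold or at any fold (*Epas1* log2 fold change 1.22, adjusted p = 0.0825; *Vegfa* 0.28, adjusted p = 0.239; *Hif1a* -0.15, adjusted p = 0.467). With 1 library left out, 1 was called at 2-fold and 1 at any fold each time, *Epas1* at 1.07 to 1.37, with *Hif1a* at -0.16 to -0.14 and *Vegfa* at 0.25 to 0.32. The call of *Hif1a* was also lost with equal totals (-0.12), equal totals outside the 10 genes with the most reads (-0.12, adjusted p = 0.123), quantile normalization (-0.11, adjusted p = 0.0941) and edgeR (-0.14), and that of *Vegfa* with DESeq2 (0.29). Directions turned for *Ankrd37* with quantile normalization (-0.088) and on leaving out a library (-0.10 to 0.34), for *Arnt* with both scalings to equal totals (0.018 and 0.020) and on leaving out a library (-0.060 to 0.038), and for *Vhl* on leaving out a library (-0.13 to 0.023). The cause was not tested.

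Of all genes, 281 were called 2-fold higher and 6 lower with a mean value of at least 50, where fewer genes were tested, 174 and 7 without the trend, 23 lower with quantile normalization, 6 lower with DESeq2, and 168 to 546 and 4 to 13 with a library left out. At any fold 549 were higher with a mean of at least 50, 179 higher and 8 lower without the trend, 55 lower with equal totals, 101 lower with equal totals outside the top 10 genes, 90 lower with DESeq2, and 218 to 803 and 31 to 111 with a library left out. Of the 5 pathway lists, 1 gene was 2-fold higher with a mean of at least 50 and 1 to 4 with a library left out. At any fold 2 were higher with a mean of at least 50 and 3 without the trend, and 1 to 5 with a library left out. The gene called lower, *Aldoc*, was not called (0 lower) with either equal totals, without the trend or with DESeq2, nor with quantile normalization (-0.12, adjusted p = 0.104), where 1 other gene was lower, and 0 to 1 were lower with a library left out.

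Libraries shared replicate numbers, and same-numbered libraries showed little shared deviation (correlation 0.012 over 14780 genes). It was 0.060 over the 11278 genes with a mean log2 value of at least that of 50. With 2 libraries a group, this cannot decide whether the numbers paired them. With the replicate number as a block, the adjusted p was 2.62e-12 for *Epas1*, 0.00603 for *Hif1a* and 0.00171 for *Vegfa*, and 348 of all genes and 2 of the pathway lists were lower at any fold. With 2 pools a group, and with 48 to 76 reads for *Ankrd37* and under 10 in WT for *Kdr* and *Ramp2*, the precision for these genes was low.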

Other observations

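The genes whose pattern over the 4 libraries was closest to each called member are given as a description, by the Euclidean distance between log2(value + 1) centred on its mean, among the 11339 genes whose mean value reached 50. Closest to *Epas1* was *Fmod*, which encodes the collagen-binding proteoglycan fibromodulin, at a distance of 0.042, with values of 1547 and 1700 with the deletion and 625 and 749 in WT lenses. *Fam13a* (0.057) and *Ankrd9* (0.145) followed, with log2 fold changes of 1.19 and 1.12. Closest to *Vegfa* was *Ctbp2*, which encodes a transcriptional corepressor, at a distance of 0.019, with values of 2006 and 1934 against 1607 and 1635. *Rsrp1* and *Ptprz1*, the latter a receptor phosphatase gene, followed, both at a log2 fold change of 0.27. Closest to *Hif1a* was *Rplp1*, which encodes a protein of the large ribosomal subunit, at a distance of 0.0067, with a log2 fold change of -0.14, followed by ENSMUSG00000090828 and *Ola1*, both at -0.15.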
